A study of Saccharomyces cerevisiae with 20 samples.

Results

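The histone genes of budding yeast were followed across NADcapPro, SPAAC and standard RNA-seq in xrn1-H41A and WT cells. They are the 10 of 6106 transcripts in the quantified set with the gene symbols HTA1 and HTA2 (histone H2A), HTB1 and HTB2 (H2B), HHT1 and HHT2 (H3), HHF1 and HHF2 (H4), HTZ1 (the variant H2A.Z) and HHO1 (the linker histone H1). All 10 passed the filter on low counts in every comparison. SPAAC, a copper-free click reaction, puts biotin on RNA whose NAD cap was first given an azide by the enzyme ADPRC, and the biotin-linked RNA is pulled down on streptavidin. NADcapPro adds a treatment with Dcs1 beforehand, an enzyme that removes the m7G cap, since ADPRC also acts weakly on m7G-capped RNA. The xrn1-H41A strain carries a substitution in Xrn1, the cytoplasmic exonuclease, which disrupts its activity towards NAD caps. Both strains had the BY4741 background (MATa, with deletions at HIS3, LEU2, MET15 and URA3) and were taken in exponential growth in YPD. Each strain and assay had 3 libraries, 18 in all, described as biological replicates. The sources used here do not say how many isolates of xrn1-H41A were grown. They name polyA RNA as the input of NADcapPro and SPAAC and do not give the input of RNA-seq, so pull-down and any difference of input cannot be told apart.

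Core histones are the proteins around which DNA is wound, with a pair of H2A and H2B dimers and a tetramer of H3 and H4 in each nucleosome. In budding yeast every core histone has a pair of genes, arranged as divergent pairs that share an upstream region, HTA with HTB and HHT with HHF. Their transcription is largely limited to S phase, and unlike the replication-dependent histone mRNAs of animals, yeast histone mRNAs carry poly(A) tails. H2A.Z, placed near promoters by the SWR1 complex, and the linker histone are encoded by lone genes.

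On the R64 assembly every member is a gene with 1 exon. HTA1 lies on chromosome IV at 915530 to 915928 on the plus strand, and HTB1 at 914317 to 914712 on the minus strand of the same chromosome. HTA2 (235394 to 235792, minus strand) and HTB2 (236492 to 236887, plus strand) form the other such pair, on chromosome II. HHF1 (255373 to 255684, minus strand) and HHT1 (256331 to 256741, plus strand) are also on chromosome II. HHT2 (575640 to 576050, minus strand) and HHF2 (576727 to 577038, plus strand) are on chromosome XIV. HTZ1 is on chromosome XV at 303579 to 303983 and HHO1 on chromosome XVI at 308828 to 309604, both on the minus strand. The regions between divergent coding sequences span 817 bases for HTB1 and HTA1, 699 for HTA2 and HTB2, 646 for HHF1 and HHT1 and 676 for HHT2 and HHF2.

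How well a read can be given to one copy depends on how far the copies differ, so the sequences are shown first. The H2A copies differed at 25 of 399 bases (93.7% identity) and in 2 residues. The stretch of 60 bases with the most differences (bases 337 to 396 of the coding sequence, 7 differences, in capitals) reads as follows, from the R64 genome.
HTA1: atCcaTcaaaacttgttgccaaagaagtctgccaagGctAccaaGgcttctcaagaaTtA
HTA2: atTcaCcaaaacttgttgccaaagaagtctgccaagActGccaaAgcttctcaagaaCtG
The H2B copies were the least alike, with 48 of 396 bases different (87.9% identity) and 4 residues. Their most different stretch (bases 49 to 108, 15 differences in capitals) is given below.
HTB1: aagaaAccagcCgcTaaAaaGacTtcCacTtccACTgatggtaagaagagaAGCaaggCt
HTB2: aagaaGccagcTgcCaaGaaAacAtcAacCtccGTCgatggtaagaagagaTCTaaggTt
The H3 copies differed at 28 of 411 bases (93.2% identity) and encode the same protein. Their most different stretch is bases 286 to 345, with 9 differences in capitals.
HHT1: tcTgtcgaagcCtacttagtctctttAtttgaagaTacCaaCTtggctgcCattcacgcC
HHT2: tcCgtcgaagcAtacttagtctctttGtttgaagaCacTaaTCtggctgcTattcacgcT
The H4 copies were the most alike, with 8 of 312 bases different (97.4% identity), every difference at the last base of a codon and none changing the protein. The stretch that holds them all, bases 36 to 297, is given whole because the calls on H4 rest on these 8 bases (capitals, at bases 36, 81, 90, 171, 204, 216, 222 and 297).
HHF1: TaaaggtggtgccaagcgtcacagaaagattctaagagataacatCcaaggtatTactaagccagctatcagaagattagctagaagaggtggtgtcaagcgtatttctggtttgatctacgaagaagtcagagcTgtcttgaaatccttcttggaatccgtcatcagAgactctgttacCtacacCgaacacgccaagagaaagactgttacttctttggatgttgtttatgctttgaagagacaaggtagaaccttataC
HHF2: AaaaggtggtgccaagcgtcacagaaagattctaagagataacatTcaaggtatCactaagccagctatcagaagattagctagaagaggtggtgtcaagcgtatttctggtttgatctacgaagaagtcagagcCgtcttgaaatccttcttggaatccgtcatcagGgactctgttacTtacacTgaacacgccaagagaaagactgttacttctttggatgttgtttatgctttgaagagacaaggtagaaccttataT
Kallisto assigns reads by short words of sequence. Of the 31-base words, 59.2% were found in no other transcript for each H4 copy, 75.6% for each H3 copy, 87.5% for each H2A copy, 98.6% for each H2B copy and 100% for HTZ1 and HHO1. All words that were not a copy's own were shared with its partner copy and with no other transcript. Counts of H4 copies therefore depend on how shared reads were divided more than counts of H2B copies, and the sum of a pair does not depend on it.

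Total counts per library ran, for xrn1-H41A, between 23036206 and 26913588 in NADcapPro, between 16081559 and 33461204 in SPAAC and between 14878320 and 27844296 in RNA-seq. In WT they were 28462212 to 30206709 in NADcapPro, 32811692 to 33816015 in SPAAC and 13038320 to 29409788 in RNA-seq. The 10 most abundant transcripts took 6.49% to 8.59% of counts in NADcapPro, 16.4% to 19.4% in SPAAC and 9.36% to 12.5% in RNA-seq libraries. LEU2, URA3 and MET17 (MET15), which BY4741 lacks, were at 0.134 TPM (counts divided by effective length and scaled to a fixed sum per library) or less in every library. All 4 MATa genes were detected (lowest value, BAR1, 28.8 TPM), MF(ALPHA)1 and STE3 reached at most 3.34 TPM, and MF(ALPHA)2 stood at 9.98 to 193 TPM. HIS3, partly deleted in BY4741, was at 98.1 to 658 TPM. XRN1 was detected in every library (6.45 to 51.3 TPM), and counts cannot show a point substitution.

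In xrn1-H41A the histone genes together took 0.528% ± 0.00802 of counts with NADcapPro, 0.745% ± 0.0129 with SPAAC and 0.538% ± 0.0166 with RNA-seq (SD, n = 3 each). In WT the shares were 0.693% ± 0.00651 in NADcapPro, 0.949% ± 0.0167 in SPAAC and 0.668% ± 0.0120 in RNA-seq (SD, n = 3 each). SPAAC thus held the largest histone share in both strains, and the shares in NADcapPro and RNA-seq were close.

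Per length, the H4 copies stood highest in RNA-seq. In xrn1-H41A, HHF2 averaged 3009 ± 86.5 TPM and HHF1 2732 ± 95.9 TPM (SD, n = 3 each), ahead of HHT2 at 2204 ± 7.02 TPM. The other 5 core genes lay between 1050 TPM (HTA1) and 1541 TPM (HTB2), and among neighbours in that order HTB2 and HTA2 overlapped between libraries, as did HTB1, HHT1 and HTA1. HTZ1 averaged 200 ± 4.73 TPM and HHO1 80.1 ± 2.26 TPM. In WT RNA-seq the 10 genes stood in the same order, from HHF2 at 3184 ± 69.1 TPM to HHO1 at 108 ± 6.08 TPM, and the libraries of HTB2 overlapped those of HTA2, as did those of HHT1 and HTA1. The lead of the H4 genes depends on the effective length, which for so short a coding sequence is far below the annotated length. With annotated length in its place, HHT2 stood at 2071 ± 39.7 TPM in xrn1-H41A RNA-seq against 2342 ± 64.4 TPM for HHF2 and 2126 ± 63.9 TPM for HHF1, and at 2452 ± 59.4 TPM in WT RNA-seq against 2508 ± 102 TPM for HHF2 and 2374 ± 101 TPM for HHF1. Within the family the order by TPM differed between assays. HHF1 had the highest mean in SPAAC (3542 ± 66.2 TPM in xrn1-H41A and 3839 ± 43.7 TPM in WT), although its libraries overlapped those of HHT2 in WT, and with annotated length HHT2 stood above it (2943 TPM against 2827 TPM in xrn1-H41A and 3747 TPM against 3143 TPM in WT). HHF2 stood at 1592 ± 25.1 TPM in xrn1-H41A SPAAC and 1581 ± 13.1 TPM in WT SPAAC, below HTB1. In xrn1-H41A NADcapPro, HHT1 stood at 435 ± 8.08 TPM, the lowest core gene, just above HTZ1 at 320 ± 15.6 TPM.

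**Figure D1:**
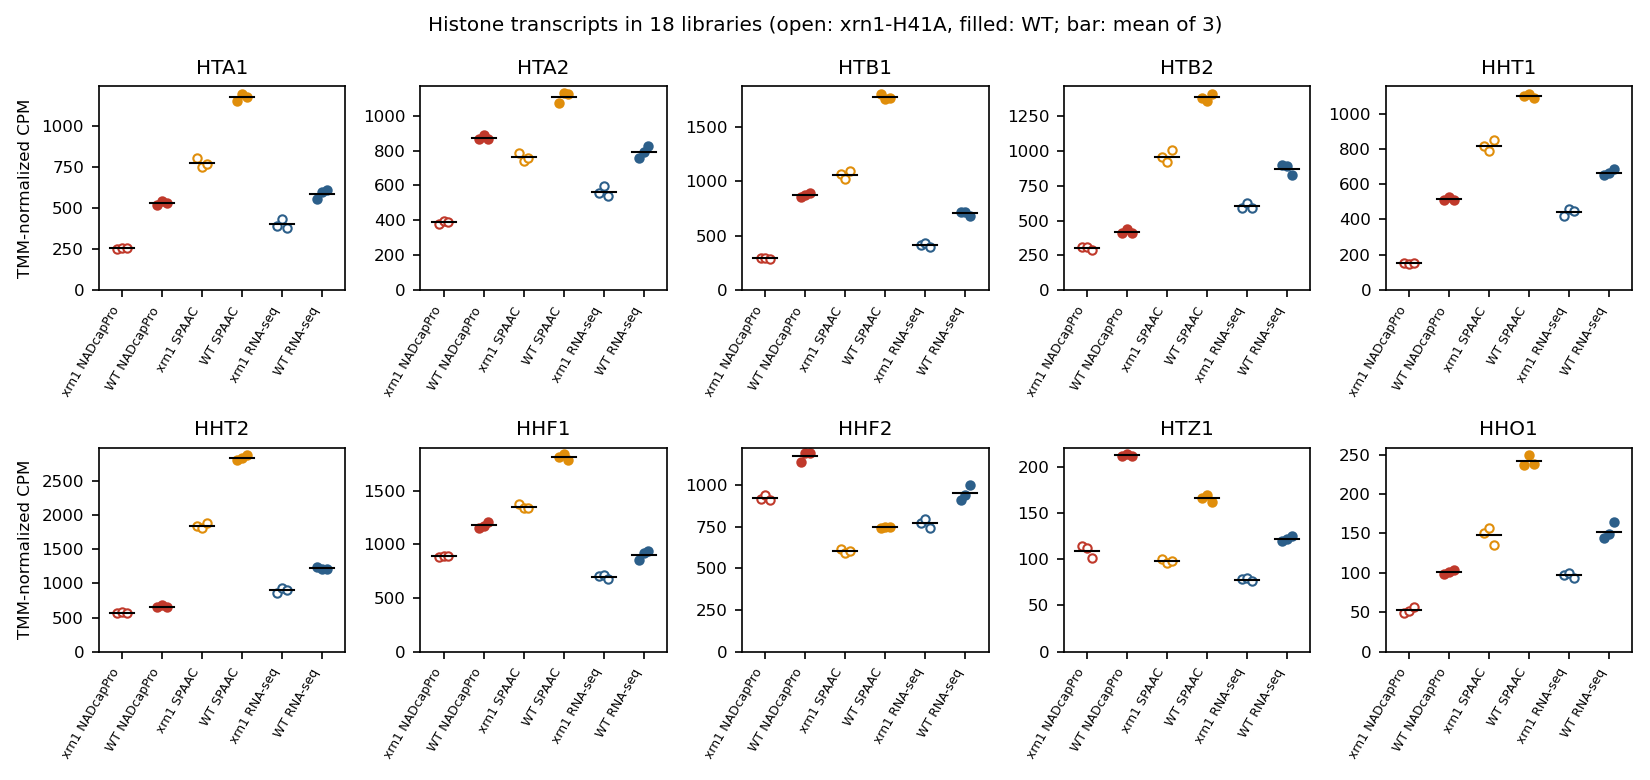
CPM (counts scaled to a common library size with TMM factors over the 18 libraries; vertical axes start at 0) of each histone gene, with 1 point per library, a bar at the mean of 3 libraries, open points for xrn1-H41A and filled points for WT. SPAAC libraries stand above RNA-seq libraries of the same strain for 9 genes and below them for HHF2, and HHT1 in xrn1-H41A NADcapPro lies between 149 and 155 CPM against 419 to 460 CPM in xrn1-H41A RNA-seq. All 10 genes were apart in every other pair of groups tested too, and the share of all transcripts that were apart was not counted. Being apart on this scale is not a difference in the fit. HTZ1 in xrn1-H41A had 101 to 114 CPM in NADcapPro and 96.2 to 99.7 CPM in SPAAC. Its log2 fold change in that comparison was -0.05 (adjusted p = 0.271 by edgeR).

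The first question was whether histone transcripts stand higher after pull-down than in RNA-seq. Libraries without ADPRC were not used, so RNA that ADPRC modified and RNA carried over without it cannot be told apart. For each comparison a transcript was called when it changed at least 2-fold and its adjusted p was 0.01 or less (quasi-likelihood test of edgeR, Benjamini-Hochberg over all transcripts tested), and "rose" or "fell" is used where the adjusted p alone passed. In SPAAC over RNA-seq, 9 of the 10 genes rose in both strains and HHF2 fell. The median log2 fold change of the members was 0.87 in xrn1-H41A (0.00 over all transcripts) and 0.69 in WT (0.02 over all transcripts). At adjusted p alone, 39.0% of transcripts rose in xrn1-H41A and 39.9% in WT. In xrn1-H41A 4 members were called higher (4.39% of all transcripts), HTB1 (log2 fold change 1.44), HHT2 (1.13), HTA1 (1.04) and HHF1 (1.04), and HHT1 was just under at 0.97. In WT 3 members were called higher (4.77% of all transcripts), HTB1 (1.32), HHT2 (1.21) and HHF1 (1.00), and HTA1 was just under at 0.99.

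HTB1, which encodes H2B, stood at 1067, 1019 and 1099 CPM in the SPAAC libraries of xrn1-H41A, against 411, 432 and 400 CPM in its RNA-seq libraries. In WT it stood at 1803, 1759 and 1766 CPM in SPAAC against 714, 717 and 686 CPM in RNA-seq. The groups were far apart in both strains, with log2 fold changes of 1.44 ± 0.0389 in xrn1-H41A and 1.32 ± 0.0285 in WT (SE, n = 3 each, adjusted p = 3.14e-13 in xrn1-H41A and 6.62e-15 in WT by edgeR). HHF2, which encodes H4, was the exception. It had 619, 596 and 605 CPM in xrn1-H41A SPAAC against 771, 796 and 745 CPM in RNA-seq, and 742, 749 and 751 CPM in WT SPAAC against 912, 944 and 1000 CPM in RNA-seq. HHF2 fell by 0.26 in xrn1-H41A and by 0.36 in WT on the log2 scale. Its copy HHF1 had 1372, 1337 and 1338 CPM in xrn1-H41A SPAAC against 708, 713 and 678 CPM in RNA-seq, and 1813, 1845 and 1788 CPM in WT SPAAC against 850, 915 and 939 CPM in RNA-seq. Every SPAAC library thus had more HHF1 and less HHF2 than every RNA-seq library of its strain.

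The remaining members rose by less than 2-fold. HTA2 rose by 0.52 in xrn1-H41A and 0.48 in WT. HTB2 rose by 0.76 in xrn1-H41A and 0.66 in WT, and HHT1 by 0.97 in xrn1-H41A and 0.72 in WT. HTZ1, which encodes the variant H2A.Z, rose by 0.42 in xrn1-H41A and 0.43 in WT, and the linker histone gene HHO1 by 0.69 in xrn1-H41A and 0.65 in WT. The calls of HHF1 and HTA1 lay near the threshold in both strains. HHF1 in WT was under 2-fold with DESeq2's size factors or Wald test (0.99 each), with at least 10 counts in every library (just under 1.00), and without WT RNA-seq replicate 1 (0.96) or WT SPAAC replicate 2 (0.99), HTA1 in WT passed it without WT RNA-seq replicate 2 (1.01), WT RNA-seq replicate 3 (1.02) or WT SPAAC replicate 1 (1.01), and HTA1 in xrn1-H41A was just under it without xrn1-H41A RNA-seq replicate 3 (1.00). In xrn1-H41A HHF1 and HTA1 were at 0.95 each with all 18 libraries in one fit. With the length trend removed, no member was called in WT and 1 in xrn1-H41A, and with library totals in place of TMM 1 was called in each strain. The shares of all transcripts called under these settings were not counted. Removing the length trend put HTZ1 at -0.02 in xrn1-H41A and -0.05 in WT, and HTA2 at 0.09 in xrn1-H41A and -0.01 in WT, none of them past the adjusted p. With library totals HTZ1 in xrn1-H41A was at 0.03 (adjusted p = 0.427 by edgeR).

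The histone genes did not move together in NADcapPro over RNA-seq. In xrn1-H41A 3 of 10 members rose (43.0% of all transcripts) and 7 fell (41.4%), with a median log2 fold change of -0.54, beside 0.02 over all transcripts. In WT 5 rose (41.1% of all transcripts) and 5 fell (40.5%), with a median of -0.01 beside 0.01. No member was called higher in either strain, where 14.3% of all transcripts in xrn1-H41A and 13.1% in WT were. The members called lower were HHT1 in xrn1-H41A (9.87% of all transcripts) and HTB2 in WT (9.85%). These comparisons and those of SPAAC share their RNA-seq libraries.

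HTB2 (H2B) had 312, 310 and 291 CPM in xrn1-H41A NADcapPro libraries against 592, 628 and 587 CPM in RNA-seq, a log2 fold change of -0.94. In WT it had 411, 437 and 413 CPM in NADcapPro against 898, 891 and 826 CPM in RNA-seq. Its log2 fold change there was -1.05 ± 0.0380 (SE, adjusted p = 5.41e-12 by edgeR). The NADcapPro libraries held less HTB2 than any RNA-seq library of their strain. With library totals in place of TMM, HTB2 in WT was at -0.91 and no longer called.

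HHT1 (H3) had 155, 149 and 153 CPM in xrn1-H41A NADcapPro against 419, 460 and 450 CPM in RNA-seq. Its log2 fold change was -1.49 ± 0.0384 (SE, adjusted p = 3.55e-14 by edgeR). In WT it had 513, 525 and 510 CPM in NADcapPro against 650, 663 and 684 CPM in RNA-seq, a log2 fold change of -0.37. The groups did not overlap in either strain, and the gap was much wider in xrn1-H41A. Its copy HHT2 had the larger fall of the pair in WT. It fell by 0.61 in xrn1-H41A, with 567, 581 and 561 CPM in NADcapPro against 862, 932 and 900 CPM in RNA-seq. In WT it fell by 0.89, with 653, 680 and 650 CPM in NADcapPro against 1246, 1214 and 1218 CPM in RNA-seq.

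HTB1 stood at 294, 292 and 290 CPM in xrn1-H41A NADcapPro against 411, 432 and 400 CPM in RNA-seq, and fell by 0.46. In WT it stood at 857, 876 and 896 CPM in NADcapPro against 714, 717 and 686 CPM in RNA-seq, and rose by 0.31. The direction of HTB1 was thus opposite in the strains, as was that of HTA2 (log2 fold change -0.49 in xrn1-H41A and 0.14 in WT). HTA1 fell in both (-0.60 in xrn1-H41A and -0.15 in WT), but with library totals it was at -0.01 in WT (adjusted p = 0.824 by edgeR). With the length trend removed, HTB1 (-0.18) and HTA2 (-0.35) also fell in WT.

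The H4 copies rose alike in NADcapPro. HHF1 rose by 0.39 in each strain, and HHF2 by 0.31 in xrn1-H41A and 0.30 in WT. These rises were not kept with the length trend removed. HHF1 was then at -0.06 in xrn1-H41A, which did not pass (adjusted p = 0.0424 by edgeR), and at -0.09 in WT. HHF2 was at -0.14 in xrn1-H41A and -0.17 in WT. HTZ1 had 114, 112 and 101 CPM in xrn1-H41A NADcapPro against 78.2, 79.7 and 75.9 CPM in RNA-seq, and 212, 214 and 212 CPM in WT NADcapPro against 120, 122 and 125 CPM in RNA-seq. Its log2 fold changes of 0.53 in xrn1-H41A and 0.80 in WT were the highest of the 10 genes in each strain. With the length trend removed, HTZ1 was at 0.31 in WT and at 0.13 in xrn1-H41A, where it did not pass (adjusted p = 0.0124 by edgeR). HHO1 fell by 0.84 in xrn1-H41A and 0.59 in WT.

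**Figure D2:**
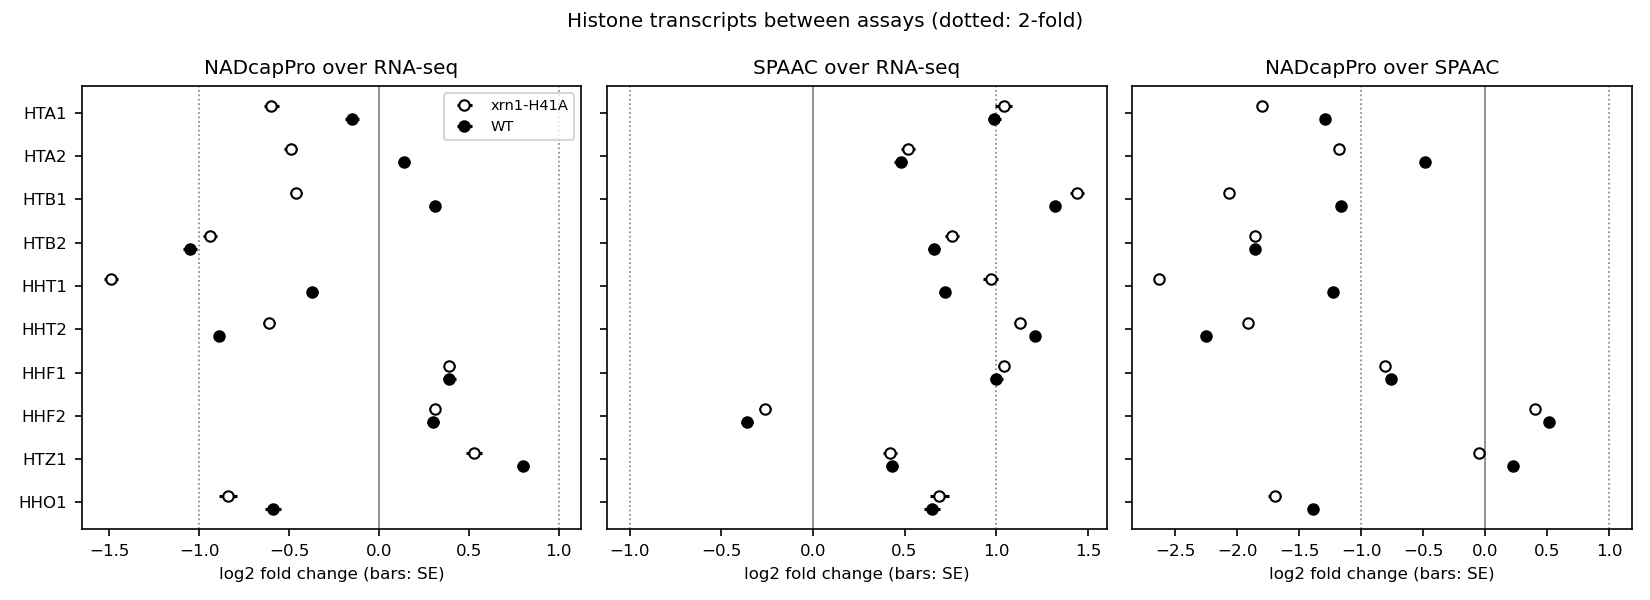
Log2 fold change of each histone gene (horizontal axis, bars are SE, n = 3 each, dotted lines at 2-fold) in NADcapPro over RNA-seq, SPAAC over RNA-seq and NADcapPro over SPAAC, with open points for xrn1-H41A and filled points for WT. In SPAAC over RNA-seq the strains lie close together for each gene, and in NADcapPro over RNA-seq HHT1 lies at -1.49 in xrn1-H41A and at -0.37 in WT.

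Set directly against SPAAC, NADcapPro held less of most histone transcripts. In xrn1-H41A 8 members fell (42.3% of all transcripts) and 7 of them were called lower (17.8%), and in WT 8 fell (41.5%) and 6 were called lower (11.3%). The members' median log2 fold change was -1.75 in xrn1-H41A (0.04 over all transcripts) and -1.19 in WT (0.02 over all transcripts). In the H3 pair HHT1 changed by -2.63 in xrn1-H41A and -1.23 in WT, and HHT2 by -1.91 in xrn1-H41A and -2.25 in WT. HTB2 was at -1.86 in both strains, HTB1 at -2.07 in xrn1-H41A and -1.16 in WT, and HTA1 at -1.80 in xrn1-H41A and -1.29 in WT. HHO1 was at -1.70 in xrn1-H41A and -1.39 in WT. HHF2 alone rose in both strains (0.40 in xrn1-H41A and 0.51 in WT), and HTZ1 was at -0.05 in xrn1-H41A (adjusted p = 0.271 by edgeR) and rose by 0.22 in WT. TMM and library totals give unlike scales here. With library totals the median of all transcripts was 0.81 log2 units higher in xrn1-H41A and 0.61 higher in WT. On that scale 4 members were called lower in xrn1-H41A and 2 in WT, HHF2 was called higher in each strain and HTA2 in WT turned to 0.12. The shares of all transcripts called with library totals were not counted.

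Histone coding sequences are short, and long transcripts stood lower in the pull-down assays as a whole. In SPAAC over RNA-seq the shortest transcripts did not stand highest. Up to 300 bases the median there was 0.14 in xrn1-H41A and 0.24 in WT. At 451 to 600 bases it was 0.49 in xrn1-H41A and 0.51 in WT. The members' coding lengths ran from 312 to 777 bases with a median of 399, against a median of 1182 over all 6106 transcripts. Of transcripts of 301 to 450 bases, the range that holds all members except HHO1, the median log2 fold change in NADcapPro over RNA-seq was 0.45 in xrn1-H41A and 0.48 in WT, and that of transcripts over 2700 bases was -0.44 in xrn1-H41A and -0.86 in WT. The median of the same short range in SPAAC over RNA-seq was 0.35 in xrn1-H41A and 0.46 in WT. Against it, HTB1, HHT2, HTA1, HHF1, HHT1 and HTB2 stood higher in SPAAC, HTA2 and HTZ1 stood near it, and HHF2 stood below. In NADcapPro every core histone gene stood below the median of its length range, in both strains. With the length trend removed, 5 members were called lower in NADcapPro over RNA-seq in xrn1-H41A (HHT1, HTB2, HHO1, HTA1 and HHT2, from -1.90 to -1.01) and 3 in WT (HTB2 at -1.54, HHT2 at -1.38 and HHO1 just past 2-fold). The share of all transcripts called with that correction was not counted, so these counts of members have no share beside them. The part of length in these results beyond that correction was not tested.

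**Figure D3:**
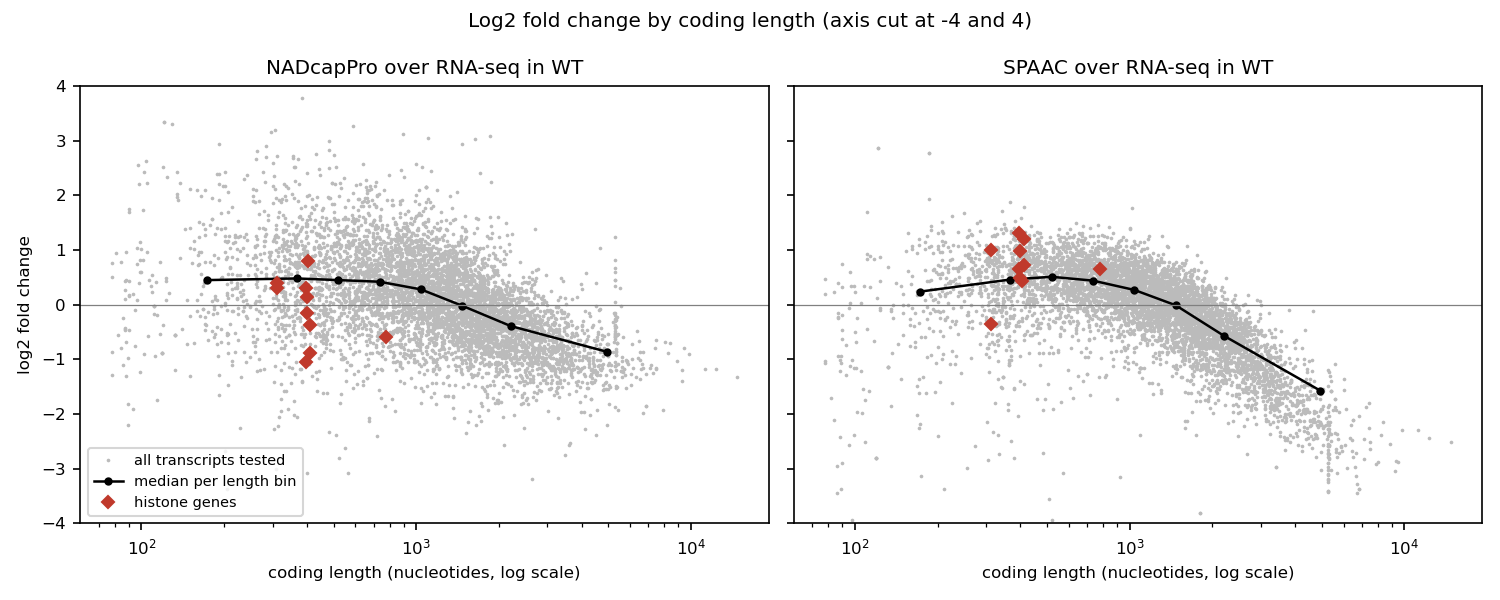
Log2 fold change (vertical axis, cut at the ends of its range) against coding length (horizontal log axis) in WT for NADcapPro over RNA-seq and SPAAC over RNA-seq, with all transcripts tested in grey, the median of each length bin as a black line and the histone genes as red diamonds. In NADcapPro all but HTZ1 lie below the black line, whose value at 301 to 450 bases is 0.48, and in SPAAC most lie on or above it, with HHF2 at -0.36 the lowest.

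The strains were compared in RNA-seq, which was run without a pull-down. All 10 histone genes fell in xrn1-H41A (34.8% of all transcripts did), with log2 fold changes from -0.77 (HTB1) to -0.31 (HHF2) and a median of -0.54 beside 0.00 over all transcripts. With library totals HHF2 was at -0.13 and did not pass (adjusted p = 0.0105 by edgeR). None was called at 2-fold, where 2.53% of all transcripts were called lower. HTB1 was at 411, 432 and 400 CPM in xrn1-H41A against 714, 717 and 686 CPM in WT (-0.77 ± 0.0412, SE, adjusted p = 2.35e-10 by edgeR). HTZ1 fell by 0.65, with 78.2, 79.7 and 75.9 CPM in xrn1-H41A against 120, 122 and 125 CPM in WT. HHO1 fell by 0.65 as well. The H4 genes fell least, HHF1 by 0.37 and HHF2 by 0.31. The copies of a histone moved nearly alike, with differences in log2 fold change of 0.06 for H2A, 0.23 for H2B, 0.14 for H3 and 0.06 for H4. Since these are bulk samples of growing cells, fewer cells in S phase and less histone RNA per cell cannot be told apart.

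Whether NADcapPro enrichment itself differed between strains was tested as an interaction. HHT1 was the member called lower (2.94% of all transcripts), at -1.11 ± 0.0492 (SE, adjusted p = 1.26e-12 by edgeR). With it, HTB1 (-0.76), HTA2 (-0.61), HTA1 (-0.43), HTZ1 (-0.25) and HHO1 (-0.23) fell, 6 of 10 members against 30.2% of all transcripts. HHT2 rose by 0.30, 1 of 10 members against 33.7%. HTB2 was at 0.13 (adjusted p = 0.0438 by edgeR), and HHF1 and HHF2 were at 0.02 each with adjusted p of 0.708 (HHF1) and 0.705 (HHF2) by edgeR. HTB2 passed as a rise with library totals (0.23, adjusted p = 0.00101 by edgeR) and with the length trend removed (0.20, 0.00351 by edgeR). HHO1 did not pass with library totals (adjusted p = 0.0928 by edgeR) or the length trend removed (0.0743), nor HTZ1 with library totals (0.0249). Of the H3 copies one thus fell and the other rose. For SPAAC enrichment the same test called none of the 10 genes at 2-fold. Their differences ran from -0.17 (HHT2) to 0.17 (HHT1), and HHT2 was the only member past the adjusted p (0.00482 by edgeR), where 14.0% of all transcripts fell. For HHT1 the adjusted p was 0.0164. The call of HHT2 was lost with the length trend removed (-0.02, adjusted p = 0.652 by edgeR), while HHT1 then passed the adjusted p at 0.31 (2.83e-05 by edgeR), as it did with library totals (0.19, 0.00548 by edgeR).

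**Figure D4:**
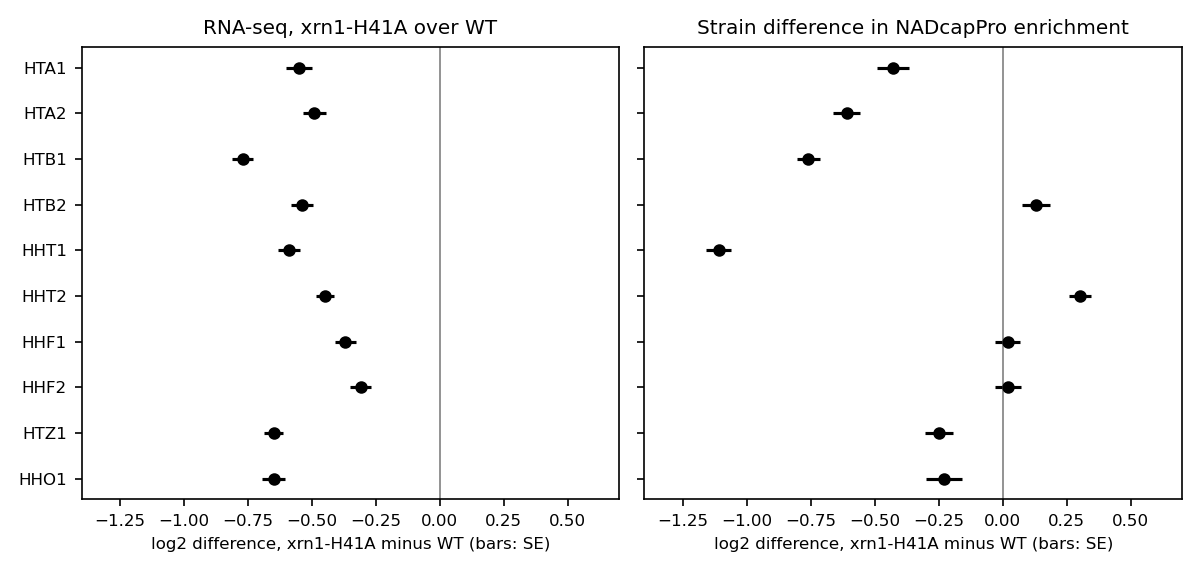
Log2 difference between xrn1-H41A and WT (horizontal axis, bars are SE) for each histone gene, in RNA-seq (left) and in enrichment by NADcapPro over RNA-seq (right). All 10 genes lie below 0 in RNA-seq, between -0.77 and -0.31, whereas the right panel runs from HHT1 at -1.11 to HHT2 at 0.30.

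The copies were then compared within each library, as the log2 ratio of the TPM of copy 1 to copy 2, which does not depend on scaling between libraries. Differences between assays were tested by an exact permutation test, two-sided, with assay labels permuted within strain over 400 arrangements, where the smallest p possible is 0.00500. Adjusted over the 12 contrasts, 9 passed, each at 0.00667. A difference of any size reaches the smallest p when the libraries are apart in the same direction in both strains. Ratios of other pairs of transcripts were not tested, so the count of 9 has no share beside it. Differences between strains were tested in the same way within assay over 8000 arrangements, adjusted over 4 ratios.

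For H2A, HTA1/HTA2 in xrn1-H41A was -0.59, -0.62 and -0.60 with NADcapPro, 0.04, 0.02 and 0.02 with SPAAC and -0.50, -0.46 and -0.51 with RNA-seq. In WT it was -0.75, -0.71 and -0.71 in NADcapPro, 0.10, 0.08 and 0.07 in SPAAC and -0.46, -0.40 and -0.44 in RNA-seq. HTA2 was thus the more abundant copy in NADcapPro and RNA-seq, and the copies were near equal in SPAAC. Averaged over strains the ratio differed by -0.20 between NADcapPro and RNA-seq, by 0.52 between SPAAC and RNA-seq and by -0.72 between NADcapPro and SPAAC (adjusted p = 0.00667 each, exact permutation test). Between strains it differed by 0.00 (adjusted p = 0.992, exact permutation test), the mean of 0.12 in NADcapPro and -0.06 in each of SPAAC and RNA-seq.

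For H2B, HTB1/HTB2 in xrn1-H41A was -0.09, -0.09 and -0.01 with NADcapPro, 0.19, 0.18 and 0.14 with SPAAC and -0.52, -0.46 and -0.54 with RNA-seq. In WT it was 1.06, 1.00 and 1.12 in NADcapPro, 0.42, 0.40 and 0.35 in SPAAC and -0.33, -0.31 and -0.22 in RNA-seq. HTB1 was therefore 2.09 times as abundant as HTB2 in WT NADcapPro, where RNA-seq gave a ratio of 0.818. The ratio was higher than in RNA-seq by 0.90 in NADcapPro and by 0.68 in SPAAC (adjusted p = 0.00667 each, exact permutation test). Within strains NADcapPro exceeded RNA-seq by 0.45 in xrn1-H41A and 1.35 in WT. NADcapPro and SPAAC differed by -0.23 in xrn1-H41A and by 0.67 in WT, and the pooled difference of 0.22 did not pass (adjusted p = 0.156, exact permutation test). The ratio was lower in xrn1-H41A than in WT (difference -0.52, adjusted p = 5.00e-04, exact permutation test), with -1.12 in NADcapPro, -0.21 in SPAAC and -0.22 in RNA-seq.

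For H3, HHT1/HHT2 in xrn1-H41A was -1.87, -1.97 and -1.88 with NADcapPro, -1.22, -1.24 and -1.21 with SPAAC and -1.10, -1.05 and -1.04 with RNA-seq. In WT it was -0.35, -0.37 and -0.35 in NADcapPro, -1.41, -1.39 and -1.44 in SPAAC and -1.02, -0.96 and -0.86 in RNA-seq. HHT2 was the more abundant copy in all 6 groups, and the ratio was at its lowest in xrn1-H41A NADcapPro and at its highest in WT NADcapPro. The TPM of HHT1 was 0.267 times that of HHT2 in xrn1-H41A NADcapPro and 0.781 times in WT NADcapPro. SPAAC minus RNA-seq was -0.16 in xrn1-H41A and -0.46 in WT (pooled -0.31, adjusted p = 0.00667, exact permutation test). NADcapPro minus RNA-seq was -0.84 in xrn1-H41A and 0.59 in WT, and NADcapPro minus SPAAC was -0.68 in xrn1-H41A and 1.06 in WT. Pooled over strains neither passed (-0.13 against RNA-seq and 0.19 against SPAAC, adjusted p = 0.595 each, exact permutation test). The difference between strains, -1.55 in NADcapPro, 0.19 in SPAAC and -0.12 in RNA-seq, averaged -0.49 (adjusted p = 0.0977, exact permutation test).

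For H4, HHF1/HHF2 in xrn1-H41A was -0.06, -0.08 and -0.04 with NADcapPro, 1.15, 1.17 and 1.15 with SPAAC and -0.12, -0.16 and -0.14 with RNA-seq. In WT it was 0.02, -0.02 and 0.01 in NADcapPro, 1.29, 1.30 and 1.25 in SPAAC and -0.10, -0.05 and -0.09 in RNA-seq. The H4 copies were near equal in NADcapPro and RNA-seq, while in SPAAC HHF1 was 2.22 times as abundant as HHF2 in xrn1-H41A and 2.43 times in WT. SPAAC exceeded RNA-seq by 1.33, NADcapPro fell short of SPAAC (difference -1.25) and NADcapPro exceeded RNA-seq by 0.08 (adjusted p = 0.00667 each, exact permutation test). The strains differed by -0.08 (adjusted p = 5.00e-04, exact permutation test), by -0.06 in NADcapPro, -0.13 in SPAAC and -0.06 in RNA-seq. With the 8 differing bases shown above, how the reads shared by HHF1 and HHF2 were divided could bear on this ratio and was not tested.

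**Figure D5:**
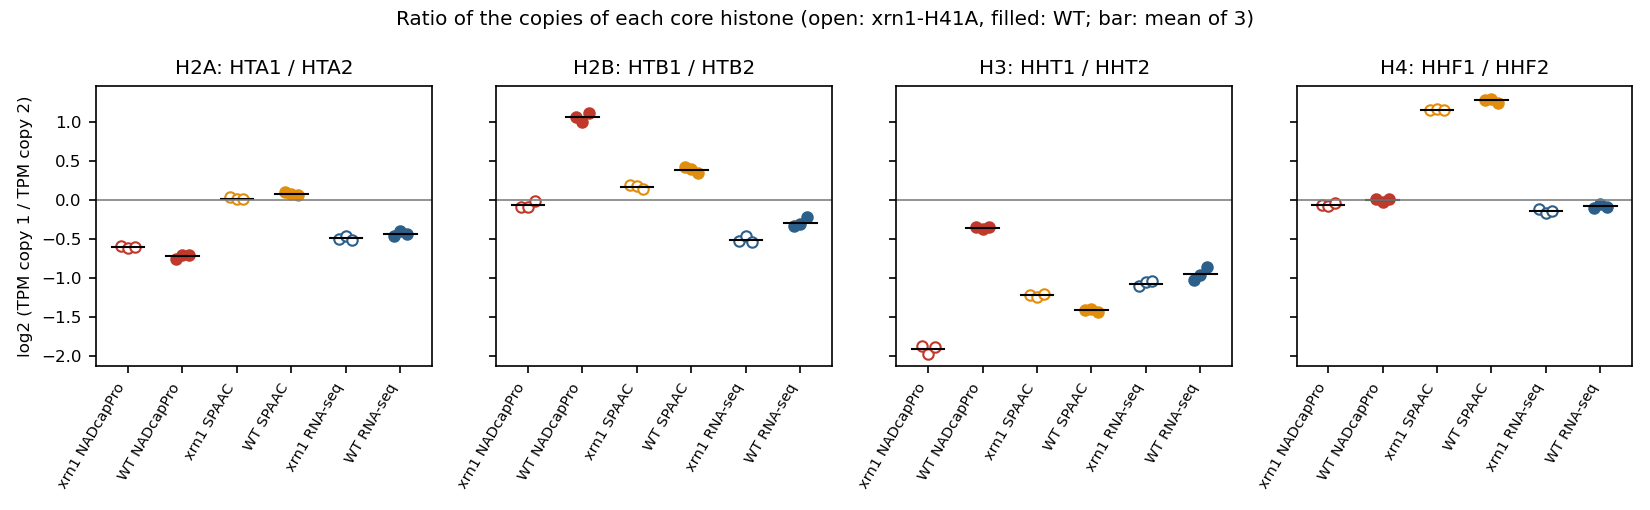
Log2 ratio of the TPM of the copies of each core histone (vertical axis), with 1 point per library, a bar at the mean of 3, open points for xrn1-H41A and filled points for WT. HTB1/HTB2 in WT NADcapPro lies at 1.00 to 1.12, HHT1/HHT2 in xrn1-H41A NADcapPro at -1.97 to -1.87, and HHF1/HHF2 in SPAAC at 1.15 to 1.30, each away from the other groups of its histone.

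Summing the copies removes the division of shared reads. Summed H3 fell in NADcapPro over RNA-seq by 0.84 in xrn1-H41A and 0.68 in WT, and summed H2B by 0.72 in xrn1-H41A and 0.28 in WT. Summed H2A fell by 0.53 in xrn1-H41A and was at 0.02 in WT (adjusted p = 0.555 by edgeR), and summed H4 rose by 0.35 in xrn1-H41A and 0.34 in WT. All 4 sums rose in SPAAC over RNA-seq, H3 by 1.08 in xrn1-H41A and 1.06 in WT, H2B by 1.08 in xrn1-H41A and 1.00 in WT, H2A by 0.76 in xrn1-H41A and 0.72 in WT, and H4 by 0.50 in xrn1-H41A and 0.46 in WT. The lower H2B and H3 in NADcapPro were thus present in the sums. With the length trend removed, summed H4 turned to -0.11 in xrn1-H41A and -0.14 in WT in NADcapPro over RNA-seq, and stood at 0.12 in xrn1-H41A and 0.01 in WT in SPAAC over RNA-seq, where it did not pass in WT (adjusted p = 0.608 by edgeR). Summed H2A in NADcapPro over RNA-seq in WT was then at -0.47. In RNA-seq the sums fell in xrn1-H41A by 0.64 (H2B), 0.52 (H2A), 0.50 (H3) and 0.34 (H4).

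Divergent partners share an upstream region, and their enrichment could be set beside that of copies. In NADcapPro over RNA-seq the median size of the difference in log2 fold change was 0.68 between the 4 pairs of divergent partners and 0.30 between the 4 pairs of copies in xrn1-H41A. In WT it was 0.97 between divergent partners and 0.41 between copies. HHT1 and HHF1, which share 646 bases of upstream region, differed most in xrn1-H41A (1.89). The order was turned round in SPAAC over RNA-seq, with medians of 0.32 between divergent partners and 0.60 between copies in xrn1-H41A, and of 0.31 between divergent partners and 0.59 between copies in WT. For RNA-seq between strains the median was 0.18 between divergent partners and 0.10 between copies. With 4 pairs of each kind these medians are a description.

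Regulators of histone genes, histone chaperones and partners, and G1/S and S phase genes were counted from 3 lists. These counts are to be read beside the shares of all transcripts in NADcapPro over RNA-seq (43.0% rose and 41.4% fell in xrn1-H41A, 41.1% rose and 40.5% fell in WT). Of 12 regulators of histone gene transcription, among them the HIR genes, 2 rose and 6 fell in NADcapPro over RNA-seq in xrn1-H41A, and 3 rose and 8 fell in WT, with SWI4, a G1/S transcription factor, called lower there (-1.51). Of 16 histone chaperones, exchange factors, acetyltransferases and the centromeric H3, 11 rose and 3 fell in xrn1-H41A, and 11 rose and 4 fell in WT, where PSH1, the ubiquitin ligase for the centromeric H3, was called higher (1.02) and the elongation factor SPT6 lower (-1.34). Of 14 G1/S and S phase genes, 3 rose and 9 fell in xrn1-H41A, and 2 rose and 9 fell in WT. Of the 4 G1/S and S phase genes called lower in WT, those with the largest changes were POL2 (-1.99) and POL1 (-1.06), catalytic subunits of DNA polymerases, and RNR1 (-1.06), the large subunit of ribonucleotide reductase. The 5 genes named here as lower had coding sequences of 2667 to 6669 bases, and the WT medians over all transcripts were -0.39 at 1801 to 2700 bases and -0.86 above 2700 bases. The lists' medians in NADcapPro over RNA-seq were -0.16 (regulators), 0.51 (chaperones and partners) and -0.26 (S phase genes) in xrn1-H41A, and -0.38 (regulators), 0.42 (chaperones and partners) and -0.43 (S phase genes) in WT. Over RNA-seq, SPAAC gave medians in xrn1-H41A of -0.67 (regulators), 0.23 (chaperones and partners) and -0.01 (S phase genes). In WT they were -1.03 (regulators), 0.22 (chaperones and partners) and -0.03 (S phase genes). All lay below the median of the histone genes, but the medians of the lists were not corrected for length. In SPAAC over RNA-seq the WT median over all transcripts was 0.46 at 301 to 450 bases and -0.57 at 1801 to 2700 bases. In xrn1-H41A it was 0.35 at 301 to 450 bases and -0.48 at 1801 to 2700 bases. The part of length in the lower medians of the lists was not tested. In RNA-seq of xrn1-H41A over WT, 7 of 12 regulators (median -0.24), 8 of 16 chaperones and partners (-0.20) and 7 of 14 S phase genes (-0.17) fell, beside 34.8% of all transcripts, and none was called at 2-fold (2.53% of all transcripts were called lower).

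Over the 6 groups the mean profile of the 8 core genes (log2 TMM CPM, centred on its mean) was, in xrn1-H41A, -0.92 with NADcapPro, 0.36 with SPAAC and -0.39 with RNA-seq. In WT it was -0.05 with NADcapPro, 0.88 with SPAAC and 0.12 with RNA-seq. The transcripts of other genes nearest to it by root mean square difference were SOD1 (0.0610), CAJ1 (0.0681), VMA11 (0.0769), UBC9 (0.0822) and YPR1 (0.0824). Among the members, HTA1 (0.131) and HHO1 (0.178) were nearest to the core profile and HHF2 (0.737) and HTZ1 (0.579) farthest, although HHF2 is part of that mean and HTZ1 is not.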

How the data were processed

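Per transcript, the authors deposited kallisto 0.48.0 expected counts, rounded to whole numbers, with lengths and effective lengths, after trimming with fastp 0.23.2 and removal of rRNA reads with hisat2. The reference was the R64 transcript set, and 6098 of 6106 transcripts were found in the R64 genome used here with the same length. Strand is not given in the sources used here. Of the libraries, 18 were used, and 2 without ADPRC, whose table rows name neither of the strains in the labels, were not. The expected counts were tested in R 4.3.3 with edgeR 4.0.16 (TMM, filterByExpr, glmQLFTest, only the libraries compared, 2-fold and adjusted p of at most 0.01). The study used DESeq2, run here as an alternative (1.42.0). CPM in the text was scaled over 18 libraries, and fold changes within each comparison. The 2 scales differed by at most 0.21 log2 units. TPM came from dividing counts by the deposited effective lengths. Chi-square per degree of freedom between replicates was 3.05 to 13.2, above sampling noise, so no library was treated as another sequenced again. This value cannot tell separate cultures from separate preparations of the same culture. Ratios, identities and permutation tests used Python 3.11.15 (SciPy 1.17.1, NumPy 2.4.6, pandas 2.3.3). Shared words were counted at 31 bases, kallisto's default. All 10 members were described, and from the 3 lists the 3 largest called changes per direction and list in NADcapPro over RNA-seq in WT or in RNA-seq between strains, with the 5 transcripts nearest to the core profile among those with at least 10 counts in every library. The members, lists and tests were chosen with earlier results of these data known. Alternatives were DESeq2 size factors, library totals, no filter, at least 10 counts in every library, all 18 libraries in one fit, the replicate block, a lowess trend on length removed, annotated length or 1 added count for ratios, and each replicate left out.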

Additional observations from a re-analysis of the deposited data

Results flagged for a closer look

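The strain difference in NADcapPro enrichment of HHT1, -1.11, passed a test of the difference itself (edgeR interaction, adjusted p = 1.26e-12). Ratios of copies moved in opposite directions in the strains. No library overlapped between the assays, but that held for every copy ratio in every contrast, also for HTA1/HTA2 between strains in SPAAC (-0.06). HTB1/HTB2 in NADcapPro minus SPAAC was -0.23 in xrn1-H41A and 0.67 in WT. HHT1/HHT2 in NADcapPro minus RNA-seq was -0.84 in xrn1-H41A and 0.59 in WT. HHT1/HHT2 in NADcapPro minus SPAAC was -0.68 in xrn1-H41A and 1.06 in WT. For these ratios the difference between the strains was not tested.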

How the results depend on the processing

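DESeq2's size factors, DESeq2's Wald test, other filters on low counts and each replicate left out kept every count of members called within 1.5 times. Shares of all transcripts called were not counted under any of the alternatives. With library totals alone, no member was called lower in NADcapPro over RNA-seq in WT (0, against 1 with TMM), 1 was called higher in SPAAC over RNA-seq in each strain (4 in xrn1-H41A and 3 in WT with TMM), and in NADcapPro over SPAAC 4 were called lower in xrn1-H41A and 2 in WT (7 and 6 with TMM) and 1 higher in each. There HTA2 turned to 0.12 in WT, HTZ1 to 0.75 in xrn1-H41A, and summed H4 to 0.49 in xrn1-H41A and 0.34 in WT. With the length trend removed, 5 were called lower in NADcapPro over RNA-seq in xrn1-H41A and 3 in WT (1 each before), and 1 higher in SPAAC over RNA-seq in xrn1-H41A and 0 in WT. The values that changed sign were, in NADcapPro over RNA-seq, HHF1 (-0.06), HHF2 (-0.14) and summed H4 (-0.11) in xrn1-H41A, and HTA2 (-0.35), HTB1 (-0.18), HHF1 (-0.09), HHF2 (-0.17), summed H2A (-0.47) and summed H4 (-0.14) in WT. In SPAAC over RNA-seq they were HTZ1 in xrn1-H41A (-0.02) and HTA2 (-0.01) and HTZ1 (-0.05) in WT, and in NADcapPro over SPAAC HTZ1 in xrn1-H41A (0.04). With all 18 libraries in one fit, 2 members were called higher in SPAAC over RNA-seq in xrn1-H41A and HTZ1 in NADcapPro over SPAAC was at 0.15 there. The strain difference of HHF1 and HHF2 in NADcapPro, near 0 and past no threshold, changed sign with DESeq2's size factors (-0.01 each) and Wald test (-0.01 each), without a filter (-0.06 and -0.05), in one fit (-0.04 each) and with single replicates left out (-0.07 to 0.06 and -0.08 to 0.05), as did summed H2A in WT NADcapPro (-0.01 to 0.05). The cause of these changes was not tested.

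Copy ratios between assays could not pass with a replicate number left out, since the smallest adjusted p is then 0.0741. Their differences were -0.21 to -0.18 (HTA1/HTA2, NADcapPro minus RNA-seq), 0.50 to 0.53 (SPAAC minus RNA-seq) and -0.73 to -0.70 (NADcapPro minus SPAAC), 0.88 to 0.93 and 0.65 to 0.71 for HTB1/HTB2 against RNA-seq in NADcapPro and SPAAC, -0.34 to -0.28 for HHT1/HHT2 in SPAAC minus RNA-seq, and 0.07 to 0.09, 1.32 to 1.33 and -1.26 to -1.23 for HHF1/HHF2 in the contrasts NADcapPro minus RNA-seq, SPAAC minus RNA-seq and NADcapPro minus SPAAC. HTA1/HTA2 between strains ranged from -0.01 to 0.00. Annotated length and 1 added count changed no call on a ratio. Same-numbered replicates did not deviate together (mean correlation -0.041 to 0.041 over comparisons), and the replicate block changed no call on a count, a member, a sum or a ratio. With 3 libraries a group, p-values measure only the spread between these libraries.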
